A study of Homo sapiens with 4 samples.

Results

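The genes described here are 37 human genes of the BRCA1 complexes, of homologous recombination and of the Fanconi anemia pathway, chosen by their symbols, out of 23605 gene symbols listed for each library. All 37 were listed, and 32 of them had a mean of at least 1 FPKM over the 4 libraries and were tested. FPKM are fragments per kilobase of transcript, also divided by the number of mapped fragments, so levels of different genes can be compared. The cells were LCC9, an established breast cancer line that resists tamoxifen and carries wild-type estrogen receptor alpha. All 4 samples were kept in medium free of phenol red with 5% charcoal-stripped serum, a medium poor in estrogens. They received either DMSO as vehicle (2 samples, the controls) or A7 (2 samples), a compound named a mimetic of BRCA1, and all were harvested after 24 h. The dose of A7 is not given in the sources used here, the titles of the samples and of the series carry different catalogue numbers for it, and only 1 line was studied. Nothing in the labels says whether the samples of a group were separate cultures, so every error below is the spread between these samples and may be technical.

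BRCA1 is a tumour suppressor protein that pairs with BARD1 and directs the repair of broken DNA by copying from the sister chromatid. In that process, called homologous recombination, the ends of a break are trimmed, BRCA2 is brought in by PALB2, and the exposed strand then searches for its matching copy. The Fanconi pathway serves the same repair at interstrand crosslinks: a nuclear core complex marks FANCD2 and FANCI with ubiquitin, and nucleases and recombination factors then follow. BRCA1 is also known to bind the estrogen receptor and to restrain its activity, and this is the function that a compound of this kind is meant to imitate. Many of these genes are known to be expressed mainly in cycling cells.

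None of the 37 genes was shown to differ between A7 and vehicle. The intervals below cover the spread between these samples under 1 scaling. With limma, 0 of the 32 tested genes passed a Benjamini-Hochberg adjusted p of 0.05 over 8952 genes (0.0223% of all genes did), 0 passed an unadjusted p of 0.05 (5.76% of all genes, 3.55% lower and 2.21% higher), and 0 passed the adjusted threshold under any of 13 alternative settings. The adjusted p-values ran from 0.806 to 0.998. For 31 of the 32 genes the 95% interval of the difference on log2(scaled FPKM + 1) stayed within 1 unit on either side of 0, that is, inside a 2-fold change on that scale. RAD51D was the exception. For 11 genes the interval stayed inside 1.5-fold, among them BRCA1, BRIP1, NBN, RAD51C and CHEK2. These counts hold for the reported scaling. With FPKM rescaled to a common sum, BRIP1 was at 0.21 and CHEK2 at 0.28 (SE 0.18 each), where the median of all genes was 0.174. The added 1 narrows differences of low genes, and with an added 0.01 the counts were 27 and 5. Scaled FPKM are the deposited values divided by 1 factor per library, between 0.99 and 1.02.

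Promoter sequence is shown for 4 of the genes on which the results below turn: BRCA1, whose start lies 127 bases from that of a gene on the other strand, RAD51C, by far the most abundant of the 37, RAD54L, lower in both A7 libraries, and RAD50, higher in both. Each line gives the 200 bases before a transcription start from RefSeq on GRCh38.p14, 5′ to 3′ in the direction of the gene. Capitals mark the word CCAAT, bound by the factor NF-Y, on either strand (read as ATTGG on the reverse). The windows are chr17:43125365-43125564 (minus strand), chr17:58692373-58692572, chr1:46247488-46247687 and chr5:132556777-132556976 (plus strand). For genes with several starts, the outermost start within 1000 bases of the innermost was used, which leaves out the distal start of BRCA1.
BRCA1: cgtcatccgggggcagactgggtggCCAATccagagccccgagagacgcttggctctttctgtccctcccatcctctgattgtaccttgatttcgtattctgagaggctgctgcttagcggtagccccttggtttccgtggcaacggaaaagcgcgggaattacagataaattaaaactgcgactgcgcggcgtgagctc
RAD51C: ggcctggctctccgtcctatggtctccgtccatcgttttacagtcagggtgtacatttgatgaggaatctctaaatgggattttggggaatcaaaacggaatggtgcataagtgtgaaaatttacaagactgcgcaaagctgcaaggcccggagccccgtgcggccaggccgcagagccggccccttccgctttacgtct
RAD54L: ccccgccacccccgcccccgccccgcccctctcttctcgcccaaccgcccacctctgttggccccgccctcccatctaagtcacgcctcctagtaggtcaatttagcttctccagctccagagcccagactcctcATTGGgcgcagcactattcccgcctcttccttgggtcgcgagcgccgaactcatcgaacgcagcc
RAD50: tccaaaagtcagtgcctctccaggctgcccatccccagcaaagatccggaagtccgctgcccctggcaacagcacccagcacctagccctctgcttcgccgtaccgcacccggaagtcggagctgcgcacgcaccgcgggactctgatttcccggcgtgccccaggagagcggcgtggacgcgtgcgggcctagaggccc

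The word begins at position -175 relative to the start of BRCA1 and at -65 relative to that of RAD54L, and these windows of RAD51C and RAD50 lack it. RefSeq promoters were at hand for 35 of the 37 genes, NBN and FANCI being the others. In the 250 bases before any of their starts, CCAAT stood on either strand in 16 of 35 genes (45.7%), against 43.4% of 6466 tested genes and 37.0% of all 27305 genes in the table. The word GGGCGG, typical of GC boxes, stood in 27 of 35 (77.1%, against 74.3% of tested genes). The E2F words TTTCCCGC or TTTGGCGC stood in 1 gene, FANCC (2.86%, against 4.36%), and the cAMP response word TGACGTCA in EXO1, RAD51C and XRCC2 (8.57%, against 3.88%). TTTGAA and TTTAAA, words of the cell-cycle homology region, stood in 4 genes each (11.4%, against 12.2% and 9.62%). Of the words found before the starts used here, 0 pairs of different words shared bases. These are matches of letters and say nothing about binding.

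The cells bore luminal breast markers, and the defining markers of other cell types were at or near 0 with few exceptions. All 8 luminal markers, among them ESR1, GATA3, KRT8 and KRT19, had a mean of 1 FPKM or more, with a summed level of 772 to 1150 scaled FPKM per library. KRT5 and KRT14 of basal cells, PTPRC, CD3E and CD14 of immune cells, and CDH5 and KDR of endothelium were listed at 0 throughout. The basal and myoepithelial list still summed to 12.3 to 16.2 scaled FPKM, mostly ACTA2 (mean 12.7), a smooth muscle actin, and the immune list to 4.56 to 5.23, mostly CD68 (mean 3.97), a lysosomal protein. Endothelial markers summed to at most 0.0961. Fibroblast markers summed to 0.416 and 0.421 with vehicle and to 11.0 and 0.963 with A7, the high value being mostly DCN, at 8.40 in A7 replicate 1. Their part in the members' values was not tested. The FPKM of a library summed to 1324082 and 1473540 for vehicle replicates 1 and 2 and to 1189056 and 1192830 for A7 replicates 1 and 2. From the steps of the lowest values, depth was estimated at roughly 2200000 to 2300000 fragments with vehicle and 3100000 to 4200000 with A7, so a low gene is counted more finely in the A7 libraries. The median over the 37 genes was 185 estimated fragments in the 4 libraries together, and 5 genes rested on fewer than 50. RNA was measured per library and not per cell, so less RNA in each cell and fewer cells with the RNA cannot be told apart.

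Levels ranged widely, and 1 gene stood far above the rest. RAD51C, a recombination factor also mutated in Fanconi anemia, had 1051 and 1197 scaled FPKM in the vehicle libraries against 936 and 1117 in the A7 libraries, which placed it at rank 157 of 8952 genes. Its mean of 1075 was 26.1 times that of the next member, BRE at 41.2. Another 8 genes averaged above 10, namely RBBP8, NBN, FANCI, FANCL, BRIP1, BRCC3, FANCD2 and RAD51AP1, and 22 tested genes lay between 1 and 10. BRCA1 itself, at a mean of 6.63, ranked 4087th, near the middle of the tested genes, whose median was 5.68. The median of the 32 tested members was 4.99. At the low end, XRCC3 was listed at 0 in vehicle replicate 1 and A7 replicate 2 and at 0.222 and 0.472 in the other libraries. ATRIP averaged 0.318, ATM 0.774, FANCC 0.807 and FANCA 0.972, and these 5 genes were not tested.

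**Figure D1:**
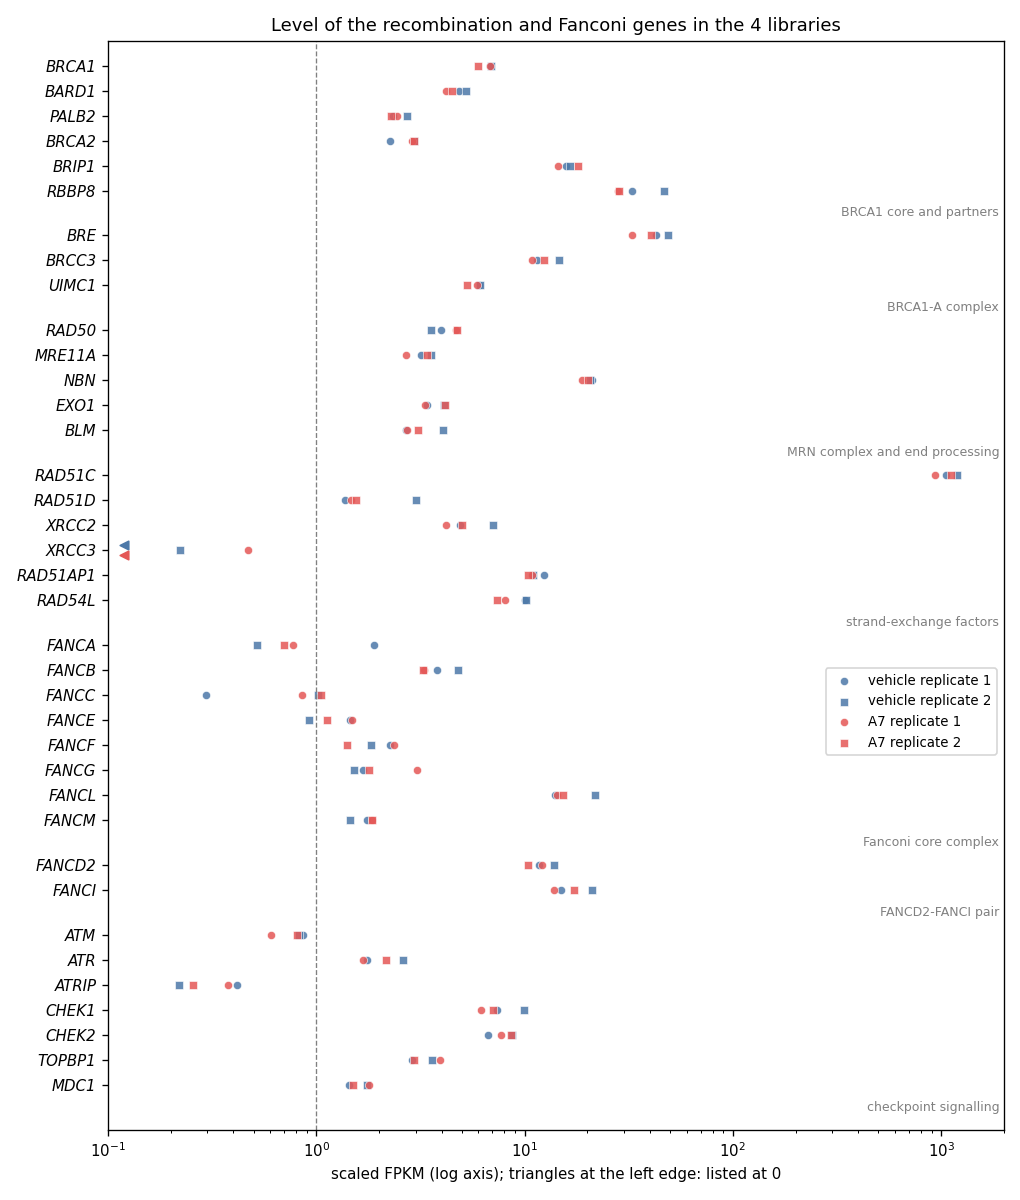
Scaled FPKM (horizontal log axis) of the 37 genes in each of the 4 libraries, with vehicle in blue and A7 in red, circles for replicate 1 and squares for replicate 2. Grey labels stand below the genes of each role, the dashed line marks 1 FPKM, and triangles mark values listed at 0. RAD51C lies near 1000, while most genes lie between 1 and 50, and the colours overlap in most rows.

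The means of the 32 tested genes were more often lower than higher with A7, but this lean was absent without 1 vehicle library. Of the 32, 23 had a lower and 9 a higher mean (50.3% of all tested genes were lower and 49.7% higher), with a median difference of -0.12 log2 units against -0.002 over all genes. When FPKM are rescaled to a common sum (TPM), every library takes another factor and the median of all genes moves to 0.17, so that 8 of 32 members and 21.7% of all genes are lower. The members' median was then 0.071, which is -0.10 relative to all genes. Members below the median of all genes numbered 23 as scaled and 24 with TPM. A total of 15 members turn from lower to higher with TPM, and all 15 stay below the median of all genes, so the turns named for single genes below are the shift that all genes share. Without vehicle replicate 2, 16 of 32 were lower and the median was -0.017. Around the mean of the 4 libraries, the members' medians were -0.03 and 0.12 for vehicle replicates 1 and 2. For A7 replicates 1 and 2 they were -0.12 and -0.06. Vehicle replicate 2 thus stood highest, and vehicle replicate 1 lay above both A7 libraries by less. Vehicle replicate 2 exceeded vehicle replicate 1 in 25 of 32 genes (52.0% of all genes), by a median of 0.19, and A7 replicate 2 exceeded A7 replicate 1 in 20 (49.8% of all genes), by 0.04. The median size of a member's difference was 0.13 between the group means, 0.21 between the vehicle libraries and 0.16 between the A7 libraries, beside 0.17, 0.22 and 0.20 over all genes. A difference of means over 2 libraries is narrower by construction than a difference of single libraries. In 6 genes, BARD1, BRE, RAD50, NBN, RAD54L and FANCB, the groups differed by more than either pair of replicates, against 24.6% of all genes.

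**Figure D2:**
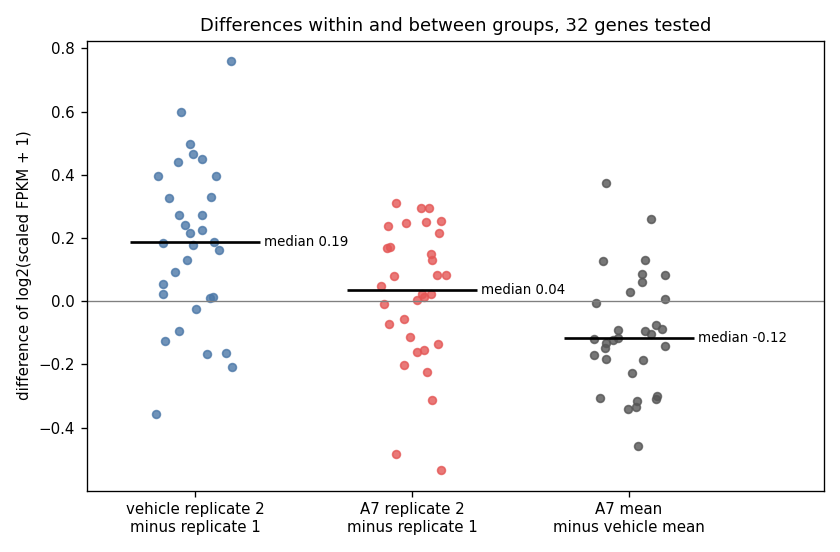
Differences of log2(scaled FPKM + 1) for the 32 tested genes (1 point per gene, placed sideways at random) between the vehicle libraries, between the A7 libraries and between the group means, with black lines at the medians of 0.19, 0.04 and -0.12. Most points lie above 0 between the vehicle libraries (25 of 32) and below 0 between the group means (23 of 32).

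The vehicle and A7 values were fully apart for 12 of the 32 genes, 9 with both A7 values below both vehicle values (18.6% of all genes) and 3 above (18.3%). The 9 were BARD1, RBBP8, BRE, UIMC1, NBN, RAD51AP1, RAD54L, FANCB and CHEK1, and the 3 were RAD50, FANCG and FANCM. In either direction, 36.9% of all genes did not overlap. With TPM the split was 3 lower and 9 higher, beside 5.36% and 40.7% of all genes. With 2 libraries a group, an exact two-sided permutation test cannot go below p = 0.333, so separation of the groups is a description.

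BRCA1 was close to level. Its scaled FPKM were 6.80 and 6.92 in the vehicle libraries against 6.80 and 6.01 in the A7 libraries, so that A7 replicate 1 lay level with the vehicle libraries and A7 replicate 2 below them. The means were 6.86 ± 0.09 and 6.40 ± 0.56 (SD, n = 2 each), and the log2 difference was -0.09 (SE 0.17, 95% interval -0.50 to 0.32, limma adjusted p = 0.935), a sign that turns with TPM (0.10). The value rests on about 451 estimated fragments, 178 with vehicle and 273 with A7.

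Among the partners of BRCA1, RBBP8 and BARD1 had both A7 values below both vehicle values and the other 3 overlapped between the groups. BARD1, which forms the ubiquitin ligase with BRCA1, was listed at 4.85 and 5.24 with vehicle against 4.17 and 4.48 with A7. The groups stood apart, yet differed by -0.18 log2 units (SE 0.17, limma adjusted p = 0.862), and with TPM it was 0.003. PALB2, the bridge to BRCA2, was listed at 2.35 and 2.74 against 2.44 and 2.27, and BRCA2 itself at 2.27 and 2.95 against 2.89 and 2.95. Both pairs overlap. BRIP1, a helicase that binds the BRCT repeats of BRCA1, was listed at 15.8 and 16.4 with vehicle against 14.4 and 18.1 with A7, with the A7 libraries on either side of both vehicle libraries and a log2 difference of 0.006 (SE 0.17). RBBP8 (CtIP), which starts the trimming of DNA ends and also binds BRCA1, had the lowest unadjusted p of all members, 0.0587. It was listed at 32.9 and 46.9 with vehicle against 28.1 and 28.6 with A7, with vehicle replicate 2 standing high and the other 3 libraries close together. Its log2 difference of -0.46 (SE 0.20, 95% interval -0.94 to 0.02, limma adjusted p = 0.806) stayed negative under every scaling and was -0.21 without vehicle replicate 2.

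The BRCA1-A complex, which holds BRCA1 at ubiquitin-marked chromatin around a break, had lower means for the 3 subunits among the members, of which 2 turn with TPM. Its subunits BABAM1 and FAM175A, not among the members, differed by 0.10 (SE 0.38) and -0.03 (SE 0.20) log2 units, and their groups overlapped. BRE (now BABAM2), the scaffold that joins the subunits, was listed at 42.9 and 48.6 with vehicle against 32.9 and 40.5 with A7. Its means of 45.7 ± 4.0 and 36.7 ± 5.4 differed by -0.32 log2 units (SE 0.16, limma adjusted p = 0.806), and by -0.10 with TPM. BRCC3, the deubiquitinase that cuts lysine-63 chains, was listed at 11.4 and 14.6 against 10.9 and 12.4, and UIMC1 (RAP80), which reads those chains, at 6.06 and 6.12 against 5.91 and 5.29. BRCC3 overlapped between groups and UIMC1 did not, and their log2 differences of -0.14 and -0.10 were 0.06 and 0.08 with TPM. A pseudogene, BRCC3P1, matches 952 bases of BRCC3 at 96.8% identity, so reads could be shared with it, and 326 bases of BRE are identical to MRPL33 transcripts in the annotation.

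**Figure D3:**
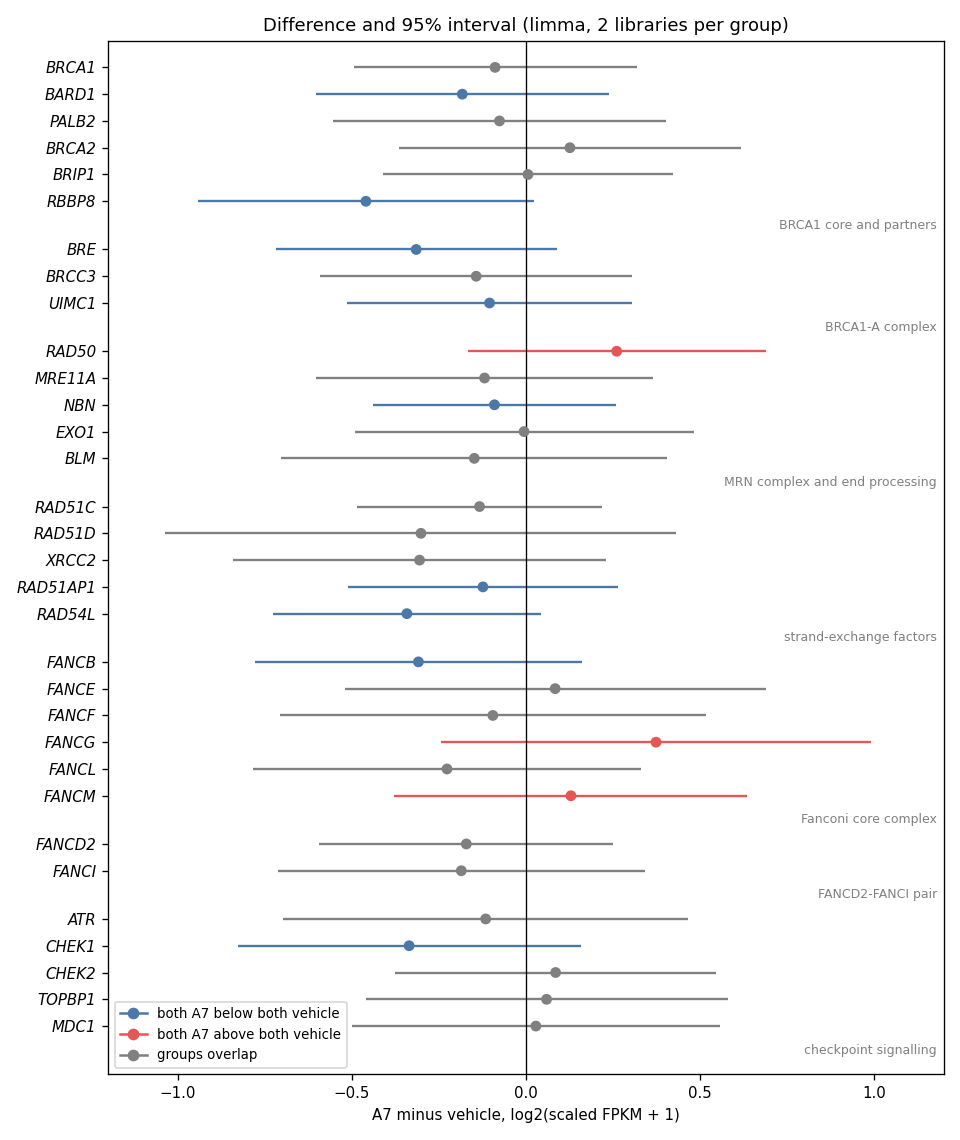
Difference between A7 and vehicle on log2(scaled FPKM + 1) for the 32 tested genes, grouped by role (grey labels below each block), with 95% intervals from limma. Blue and red mark genes whose groups did not overlap, lower or higher with A7, and every interval includes 0.

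The sensors and nucleases of the break had small differences of either sign, and every interval included 0. RAD50, the ATPase that holds the ends within the MRN complex, had the highest values relative to vehicle of that complex, at 3.98 and 3.56 with vehicle and 4.68 and 4.74 with A7. Both A7 libraries lay above both vehicle libraries, with a log2 difference of 0.26 (SE 0.17, 95% interval -0.17 to 0.69, limma adjusted p = 0.814) that was positive under every scaling and without any 1 library (0.20 to 0.32). Its partners had lower means. The nuclease MRE11A (now MRE11) was listed at 3.18 and 3.57 against 2.69 and 3.40, and the signalling subunit NBN at 21.0 and 20.6 against 18.9 and 20.1. Their log2 differences were -0.12 (SE 0.20) and -0.09 (SE 0.14), and both turn positive with TPM. Whether RAD50 differed from these partners was not tested. The exonuclease EXO1 averaged 3.76 ± 0.50 and 3.75 ± 0.57, a difference of -0.005 log2 units (SE 0.20). For the helicase BLM the vehicle libraries, at 2.70 and 4.06, lay on either side of the A7 libraries, at 2.73 and 3.08, with a difference of -0.15 (SE 0.23). Both signs turn with TPM.

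Among the strand-exchange factors all 5 tested genes had lower means with A7, although RAD51C and RAD51AP1 turn with TPM and RAD51C also turns after quantile normalization. RAD54L, a motor protein that opens the donor duplex, was listed at 10.02 and 10.11 with vehicle against 8.09 and 7.40 with A7. The vehicle replicates were close together and both A7 libraries lay below them, 1.30-fold lower by the means (10.1 ± 0.063 and 7.74 ± 0.49, SD, n = 2 each). A log2 difference of -0.34 resulted (SE 0.16, 95% interval -0.73 to 0.04, limma adjusted p = 0.806), negative under every scaling and between -0.40 and -0.28 when any 1 library was left out. Exons of RAD54L overlap those of LRRC41 on the other strand, which had a difference of 0.09 (SE 0.22), and the library kit is not described as keeping the strand. XRCC2, which acts in a complex with RAD51D, was listed at 4.92 and 7.03 against 4.18 and 5.01, with a log2 difference of -0.31 (SE 0.22). RAD51D was listed at 1.37 and 3.01 against 1.46 and 1.55, and here vehicle replicate 2 stood above the other 3 libraries. The difference was -0.30 (SE 0.30), and 0.08 without that library. It rests on about 32 estimated fragments and overlaps the read-through gene RAD51L3-RFFL. RAD51AP1, a DNA-binding accessory factor, averaged 11.7 ± 1.0 and 10.6 ± 0.3. For RAD51C the means of 1124 ± 103 and 1027 ± 128 gave a log2 difference of -0.13 (SE 0.14, 95% interval -0.49 to 0.22), which turns to 0.09 with TPM and 0.04 after quantile normalization.

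The Fanconi core complex split evenly, with 3 of its 6 tested genes lower and 3 higher, and FANCF turns with TPM. FANCB, a core subunit encoded on the X chromosome, was listed at 3.81 and 4.81 with vehicle against 3.28 and 3.26 with A7. The groups stood apart, with a log2 difference of -0.31 (SE 0.19, limma adjusted p = 0.806). FANCL, the ubiquitin ligase of the complex, was listed at 14.0 and 21.7 against 14.4 and 15.2, with vehicle replicate 2 again standing alone: the log2 difference was -0.23 (SE 0.23) and 0.07 without that library. FANCG, a scaffold of the core, lay higher with A7, at 1.68 and 1.51 with vehicle and 3.04 and 1.79 with A7. This is the largest positive difference of the members, 0.37 (SE 0.25, 95% interval -0.25 to 0.99, limma adjusted p = 0.814), and it was 0.11 without A7 replicate 1. FANCM, the translocase that anchors the complex to DNA, was listed at 1.76 and 1.46 against 1.85 and 1.85. FANCE, which contacts FANCD2, averaged 1.19 ± 0.38 and 1.31 ± 0.25, and FANCF, an adaptor encoded by a single exon, 2.05 ± 0.31 and 1.89 ± 0.68. Below the minimum, FANCA was listed at 1.90 and 0.518 against 0.774 and 0.698, so that vehicle replicate 1 stood alone, and FANCC at 0.297 and 1.02 against 0.856 and 1.05.

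The substrates of the core complex were similar in level and in difference, both of which turn with TPM. FANCD2 was listed at 11.7 and 13.9 with vehicle against 12.1 and 10.4 with A7, and FANCI at 14.9 and 21.0 against 13.9 and 17.2. Their log2 differences were -0.17 (SE 0.17) and -0.19 (SE 0.21), and 0.04 and 0.03 with TPM. The groups overlapped for both. Reads of FANCD2 may be shared with the pseudogene FANCD2P2, which matches 1167 of its bases at 96.5% identity.

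Checkpoint genes lay around 0 except CHEK1. CHEK1, the kinase that ATR activates at stalled forks, was listed at 7.35 and 9.99 with vehicle against 6.17 and 7.05 with A7. Its means of 8.67 ± 1.87 and 6.61 ± 0.62 differed by -0.34 log2 units (SE 0.20, 95% interval -0.83 to 0.16, limma adjusted p = 0.806), and by -0.14 without vehicle replicate 2. CHEK2, the kinase downstream of ATM, was listed at 6.69 and 8.67 against 7.68 and 8.63, a difference of 0.09 (SE 0.19), and shares 475 bases at 96.2% identity with the pseudogene CHEK2P2. ATR averaged 2.18 ± 0.61 and 1.92 ± 0.34, its activator TOPBP1 3.25 ± 0.50 and 3.44 ± 0.68, and MDC1, which spreads the damage mark along chromatin, 1.59 ± 0.23 and 1.65 ± 0.21. The sign of ATR turns with TPM and that of MDC1 after quantile normalization. ATM, the kinase that answers breaks, was below the minimum, at 0.863 and 0.826 with vehicle and 0.605 and 0.804 with A7. ATRIP, the partner of ATR, was listed at 0.417 and 0.218 against 0.379 and 0.257, about 9 estimated fragments in all, and overlaps TREX1 on the same strand.

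**Figure D4:**
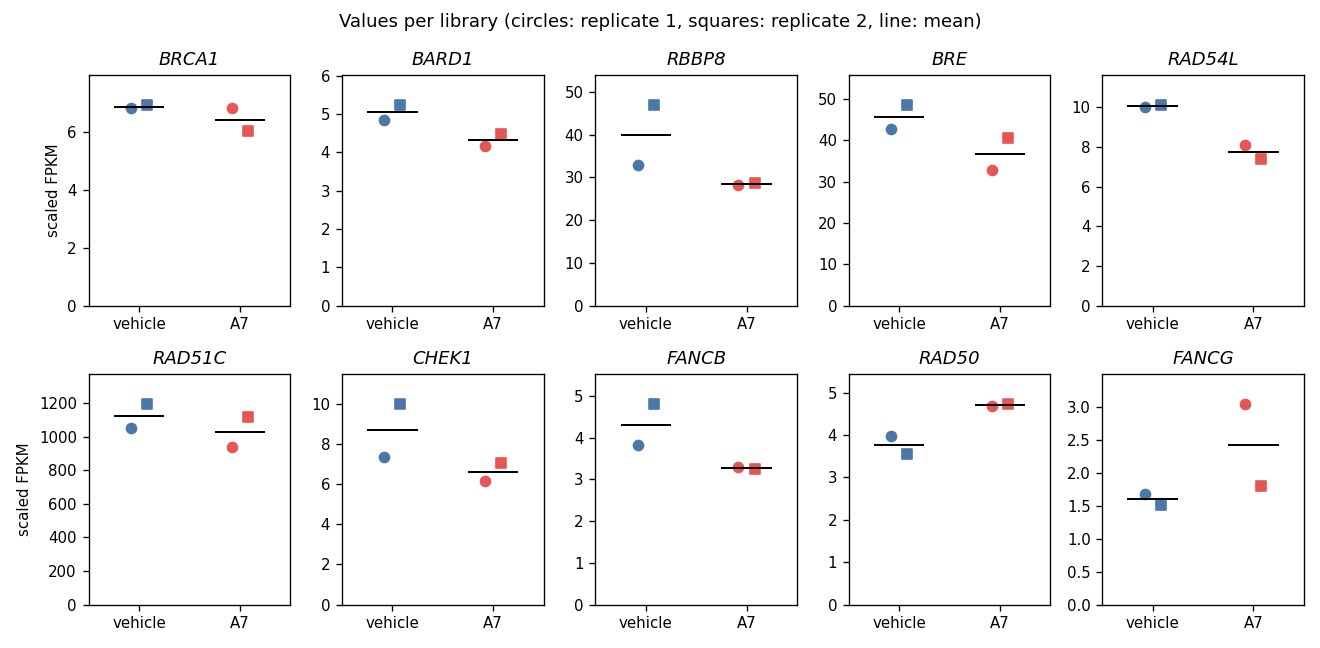
Scaled FPKM (vertical axes from 0, each with its own range) of 10 genes in the vehicle (blue) and A7 (red) libraries, with circles for replicate 1, squares for replicate 2 and lines at the means. RBBP8, CHEK1 and FANCB have 1 vehicle library well above the others, RAD54L and RAD50 have close replicates, and BRCA1 overlaps between the groups.

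Counting error was set beside these values, and the counting interval of 7 members left out a ratio of 1. The share of all genes with such an interval was not computed, so the count cannot be read as a trait of the members. The limma intervals of all 32 tested members included 0. From estimated fragments, the ratio of A7 to vehicle was 0.705 for RBBP8 (95% exact binomial interval 0.631 to 0.788), 0.787 for BRE (0.683 to 0.908), 0.770 for RAD54L (0.608 to 0.978), 0.749 for CHEK1 (0.600 to 0.937) and 1.23 for RAD50 (1.00 to 1.51). FANCI and RAD51C were the remaining members whose interval left out 1, at 0.848 and 0.898. Other members with many fragments had intervals that included 1. These were, for example, BRIP1 (about 1155 fragments, 0.878 to 1.117), NBN (1089, 0.822 to 1.052) and BRCA1 (451, 0.776 to 1.143). Such an interval ignores the difference between replicates, and for XRCC3, with about 6 fragments, it ran from 0.343 to 145. Lengths from another annotation enter these estimates, so they are rough.

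No gene of the wider pathway passed the adjusted threshold either. Of 49 other recombination and Fanconi genes 43 were tested, 24 lower and 19 higher, with a median of -0.03 (also -0.03 relative to all genes with TPM), and 0 passed over all genes. The lowest unadjusted p belonged to RPA2, a subunit of the protein that coats the exposed strand, listed at 81.1 and 78.3 with vehicle against 52.3 and 60.3 with A7 (a difference of -0.50, SE 0.14, limma adjusted p = 0.806). UBE2T, the enzyme that supplies ubiquitin to the Fanconi core, was listed at 410 and 508 against 323 and 337 (-0.47, SE 0.15, limma adjusted p = 0.806). Both stayed negative under every scaling and without any 1 library. MND1, an activator of meiotic recombination, had a difference of -0.45 (SE 0.23), and RAD51B, a partner of RAD51C, -0.40 (SE 0.21).

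Of 16 other checkpoint genes 13 were tested, 7 lower and 6 higher, and HUS1, part of the clamp that activates ATR, had the lowest p, at 14.3 and 12.25 against 9.90 and 9.47 (-0.41, SE 0.16, limma adjusted p = 0.806). TTI2 and CLSPN, the adaptor between ATR and CHEK1, had differences of -0.31 (SE 0.18) and -0.26 (SE 0.16), and ETAA1 0.36 (SE 0.30). Of 18 genes of end joining and strand-break repair 13 were tested, 8 lower and 5 higher, with a median of -0.10 (-0.09 relative to all genes with TPM). NHEJ1, a ligation factor, was listed at 9.33 and 8.82 against 6.30 and 7.63 (-0.34, SE 0.17). XRCC5 and XRCC6, the Ku subunits that cap broken ends, had differences of -0.29 (SE 0.19) and -0.26 (SE 0.17), and the ligase LIG3 0.27 (SE 0.20). No gene of these lists passed over all genes tested.

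Proliferation markers, genes expressed in cycling cells, gave 0 genes past the adjusted threshold. All 14 were tested, 9 lower and 5 higher, with a median of -0.10 (-0.07 relative to all genes with TPM). Their summed level was 577 and 661 scaled FPKM with vehicle and 524 and 535 with A7, so vehicle replicate 2 was the highest by the sum. It was not by the measure used for the members. Around the mean of the 4 libraries, the markers' medians were 0.031 and 0.026 for vehicle replicates 1 and 2. For A7 replicates 1 and 2 they were 0.031 and -0.075. Vehicle replicate 2 exceeded vehicle replicate 1 in 7 of the 14 genes. The part of cycling cells in the members' values was not tested. The cyclin CCNB1 was listed at 131 and 167 against 104 and 115 (-0.44, SE 0.16, limma adjusted p = 0.806), while the cyclin CCNA2 was at 6.90 and 6.08 against 8.48 and 9.07 (0.39, SE 0.16, limma adjusted p = 0.806). The kinetochore kinase BUB1 and the clamp PCNA had differences of -0.31 (SE 0.17) and -0.26 (SE 0.15).

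Position was a feature that the choice of members did not use. In GENCODE 29, 14 of the 37 genes (37.8%) have a transcription start within 1000 bases of the start of a listed gene on the other strand, against 21.9% of 8217 tested genes with an entry. In 6 of the 14 pairs the member was the more abundant gene. The neighbour of BRCA1, NBR2, is a noncoding RNA gene. It was listed at 4.86 and 5.63 with vehicle against 4.01 and 3.91 with A7 (a difference of -0.33, SE 0.18, limma adjusted p = 0.806), apart between groups where BRCA1 was not, although the difference between them was not tested. RAD51C and TEX14, a gene of germ cell bridges, start 518 bases apart and averaged 1075 and 1.67. FANCM and FKBP3, 621 bases apart, averaged 1.73 and 108, and BRCC3 and CMC4, 58 bases apart, 12.3 and 13.5. In 11 pairs both genes were tested, and in 4 of these the differences had the same sign, 3 lower and 1 higher. Exons of 9 members overlap a listed gene on the other strand, among them BRE with RBKS, FANCI with POLG and FANCA with ZNF276, and without strand their reads cannot be told apart.

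**Figure D5:**
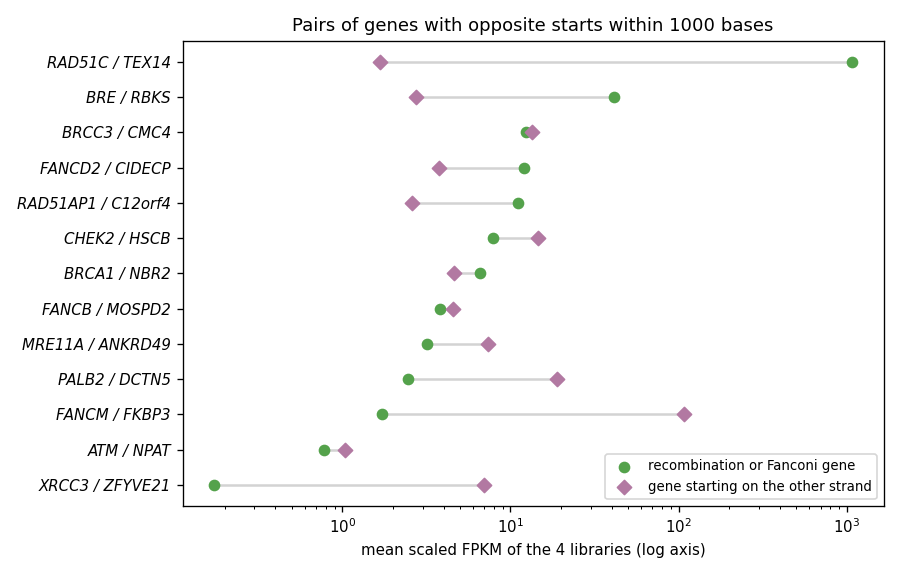
Mean scaled FPKM over the 4 libraries (log axis) of 13 members (green circles) and of the nearest gene starting within 1000 bases on the other strand (purple diamonds). BRCA2 is left out because its neighbour ZAR1L is listed at 0. RAD51C and TEX14 lie at 1075 and 1.67, whereas BRCC3 and CMC4 lie side by side.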

How the data were processed

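cDNA of 4 LCC9 samples was prepared by a SMARTer PCR method, sheared and amplified, per the labels' protocols, which name no step that keeps the strand. The authors deposited 1 table of FPKM per library, per the file headers. The submitters' processing notes list Cufflinks 2.2.1, TopHat, CASAVA 1.8.2 and GRCh37, without roles. The annotation, the handling of reads with several positions and any further scaling were not given in the sources used here.

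Of 23619 lines, 14 with a number for a symbol (at most 0.00539% of summed FPKM) were dropped. Libraries were scaled by median ratios to a geometric-mean reference. Genes whose FPKM averaged at least 1 were fitted with limma 3.58.1 in R 4.3.3 on log2(scaled FPKM + 1) with a variance trend, A7 minus vehicle, two-sided, with Benjamini-Hochberg adjustment at 0.05 (2 residual and 3.89 prior degrees of freedom). The fit was tested on simulated data, and the share of changes it recovered is not given here. All 37 members are named, with up to 4 genes of lowest p from each other list. BABAM1 and FAM175A are named outside that rule, as further subunits of the BRCA1-A complex. The rule also named a gene not reported here. Members and lists were chosen with earlier results of these data known. NBR2, LRRC41 and the other neighbours were taken from the annotation or a list by position. Depth came from the steps of low FPKM, and fragments from median GENCODE 29 lengths of transcripts with a RefSeq mRNA. Copies were searched with blastn 2.17.0 (at least 95% identity over 300 bases). Coordinates are of GRCh38, not of the files' build. They serve the promoters, the distances between starts, the exon overlaps and the order of neighbouring genes. Alternatives were other pseudocounts (0.1 and 0.01), filters (none, and 5 FPKM), scalings (none, TPM, quantile), no variance trend, a replicate block and each library left out.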

Additional observations from a re-analysis of the deposited data

How the results depend on the processing

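No member passed the adjusted threshold under any of the 13 alternatives, the lowest adjusted p being 0.505, and of 400 differences of tested members under an alternative 360 kept their direction and 40 turned. With TPM the turned differences were 0.103 for BRCA1, 0.003 for BARD1, 0.078 for PALB2, 0.064 for BRCC3, 0.084 for UIMC1, 0.050 for MRE11A, 0.122 for NBN, 0.164 for EXO1, 0.022 for BLM, 0.092 for RAD51C, 0.080 for RAD51AP1, 0.046 for FANCF, 0.036 for FANCD2, 0.027 for FANCI and 0.035 for ATR, beside a shift of all genes to 0.174. After quantile normalization RAD51C was at 0.043 and MDC1 at -0.032. Leaving out 1 library at a time gave ranges that cross 0 for 16 members: PALB2 (-0.156 to 0.005), BRCA2 (-0.010 to 0.263), BRIP1 (-0.149 to 0.161), BRCC3 (-0.306 to 0.020), MRE11A (-0.245 to 0.007), EXO1 (-0.128 to 0.118), BLM (-0.374 to 0.078), RAD51D (-0.681 to 0.079), FANCE (-0.094 to 0.262), FANCF (-0.336 to 0.146), FANCL (-0.527 to 0.074), FANCI (-0.418 to 0.047), ATR (-0.314 to 0.083), CHEK2 (-0.080 to 0.251), TOPBP1 (-0.097 to 0.216) and MDC1 (-0.064 to 0.121).

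The count of members with a lower mean was 8 of 32 with TPM (where 21.7% of all genes are lower) and 16 to 27 of 32 with 1 library left out. With a minimum of 5 FPKM fewer genes entered, and 14 of 16 members were lower. The median of all genes was then -0.048, and the share of all genes that were lower was not computed. Their median was 0.071 with TPM (-0.103 relative to all genes) and -0.157 with a minimum of 5 FPKM (-0.109 relative to all genes). It ran from -0.170 to -0.017 with 1 library left out, the highest value being without vehicle replicate 2. Members without overlap were 3 lower and 9 higher with TPM, and 0 were higher with a minimum of 5 FPKM. That 0 follows from the filter, since RAD50, FANCG and FANCM, the members higher without overlap as scaled, average below 5 FPKM. Over all genes, 1 higher and 1 lower passed. Neither dropping the filter nor blocking on replicate numbers left any (0 higher, 0 lower). Without the variance trend 0 were higher, and with a pseudocount of 0.1 or 0.01 0 were lower. TPM and quantile normalization gave 2 lower each, and a minimum of 5 FPKM gave 3. With 1 library left out, 1 to 10 were higher and 0 to 7 lower, where the remaining library of an arm is assumed to vary like the others. The cause was not tested.

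Deviations of libraries with the same replicate number correlated at 0.0906 over genes. With 2 pairs this does not show that the numbers pair the samples, and the block changed no call of a member at the adjusted threshold. With all 4 libraries kept, unadjusted limma p-values of members fell under 0.05 for RBBP8 (0.033) and BRE (0.0279) with the block. They also did for RAD54L with no filter (0.0448) and for RBBP8 with a minimum of 5 FPKM (0.0474). In the reported fit 0 members and 5.76% of all genes fell under 0.05, and the shares of all genes under these alternatives are not given here. Without vehicle replicate 1 the differences of RBBP8, RAD51D and FANCL were -0.708, -0.681 and -0.527. Without vehicle replicate 2 they were -0.210, 0.079 and 0.074. Depth limits XRCC3, ATRIP, RAD51D, FANCE and FANCC most, each with fewer than 50 estimated fragments in all, and 2 of these 5 lie above 1 FPKM.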

Other observations

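RAD51C and BRIP1 both lie on the long arm of chromosome 17, and the genes around them were looked at for their levels. These neighbours were chosen after the values of RAD51C were seen. Of the 6 protein-coding genes on either side of RAD51C in the RefSeq order, 10 were matched by symbol. They averaged between 0.0231 and 75.0 scaled FPKM over the 4 libraries, with a median of 3.84, against 1075 for RAD51C. The highest were SKA2, a kinetochore gene, at 75.0 and TRIM37, a ubiquitin ligase, at 60.8. Around BRIP1, at 16.2, the 12 neighbours ran from 0 to 557 with a median of 9.56, the highest being NACA2, and PPM1D, the phosphatase that turns off ATM signalling, stood at 12.5.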
